A study of Mus musculus with 5 samples.

Results

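The genes that move a cell out of G1 were examined in the right hemisphere of GL261-bearing mice with and without ultrasound-mediated blood-brain barrier opening (UMBO). They comprise 10 genes chosen by name: the D-type cyclins Ccnd1, Ccnd2 and Ccnd3, the cyclins E Ccne1 and Ccne2, the kinases Cdk4 and Cdk6, and the inhibitors Cdkn1b, Cdkn2a and Cdkn2c. All 10 were matched by mouse symbol to an Ensembl identifier, out of 55573 genes counted, and all 10 passed the filter on low counts. GL261 is a mouse glioma line, here carrying a luciferase/mKate2 vector, that was injected into the right caudate nucleus-putamen of C57BL/6 females aged 7 to 8 weeks. The 3 vehicle mice received inVivoPure pH 6.5 Dilution Buffer, and the 2 UMBO mice had low-intensity pulsed ultrasound together with intravenous microbubbles. Sessions fell on days 21 and 24, and the mice were taken with tumors of like size by bioluminescence. Tissue was taken 24 h after the last session, and each library is bulk RNA of 1 mouse, so tumor, brain and immune cells all contribute to it. Fewer cells of a type and less RNA per cell cannot be told apart in such libraries. The experiment included a further mouse, which was not analysed here. GL261 is a single line, so the tumor cells of all 5 mice share 1 origin.

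D-type cyclins bind Cdk4 or Cdk6, and the active kinases phosphorylate the retinoblastoma protein, which releases E2F transcription factors. E2F factors in turn raise the genes for the cyclins E, which act with Cdk2 to commit the cell to DNA replication. Proteins of the INK4 group, among them p16 (from Cdkn2a) and p18 (from Cdkn2c), bind Cdk4 and Cdk6 and block them, while p27 (from Cdkn1b) binds cyclin-CDK complexes more widely. In the adult brain most neurons have left the cell cycle, whereas glioma cells, glial progenitors and dividing immune cells pass through G1. The pathway is altered in many human gliomas.

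The libraries held between 59736771 and 86164159 counted reads, and the lowest count of a member in any library was 83, so counting error was at most 11.0% for these genes. UMBO replicate 2 stood apart from the other libraries. Its summed level of 10 proliferation markers was 446 CPM (counts scaled to the size of each library, with TMM factors, which correct for its composition), against 31.6 to 101 CPM in the vehicle libraries and 108 CPM in UMBO replicate 1. The summed level of 8 neuronal markers was 2898 CPM in UMBO replicate 2 and 5813 to 8890 CPM in the vehicle libraries. That of 6 monocyte and macrophage markers was 415 CPM against 16.9 to 109 CPM. UMBO replicate 1 lay inside the vehicle range for both lists, at 6171 and 76.1 CPM. Markers of oligodendrocyte progenitors summed to 327 to 418 CPM with vehicle and to 548 and 730 CPM with UMBO. Those of microglia summed to 293 to 424 CPM and to 532 and 663 CPM. Of the 6 progenitor markers 5 were higher with UMBO, and 2 had both UMBO libraries above the vehicle libraries (11.5% of all genes). Of the 6 microglia markers 4 were higher, and 4 had both UMBO libraries above. No marker of neurons, astrocytes, oligodendrocytes, microglia or the other lists was at 0 in any library. The part of these shifts in the results for the G1 genes was not tested.

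All 10 genes had a higher fitted level with UMBO, but none passed the test over all genes, and the size of the differences came mainly from 1 mouse. With edgeR's quasi-likelihood test 0 of the 10 had an adjusted p under 0.05, as had 0% of the 23592 genes tested. At an unadjusted p under 0.05 there were 4 of the 10, namely Ccnd1, Ccnd3, Cdk4 and Cdkn2c, all higher with UMBO, where 7.37% of all genes passed in either direction, 5.3% as higher and 2.06% as lower. DESeq2 called 37 of all genes (0.157%) and none of the 10, of which 5 had an unadjusted p under 0.05 (11.2% of all genes). Their median log2 fold change was 1.05, against 0.01 over all genes. Of all genes 50.9% were higher with UMBO. Without UMBO replicate 2, 11295 of these genes were higher and 12287 lower, with a median of -0.01. Without UMBO replicate 2 the median of the 10 was 0.16, with 7 genes higher and 3 lower, and Cdkn2c alone had an unadjusted p under 0.05, against 1.86% of all genes. Cdkn2c was likewise the 1 gene without vehicle replicate 1 (1.28% of all genes) and without vehicle replicate 3 (1.88%). Without UMBO replicate 1, which leaves that group a lone library assumed to vary as the vehicle libraries do, 5 of the 10 passed the adjusted threshold, against 18.3% of all genes, and 7 the unadjusted one, against 41% of all genes.

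**Figure D1:**
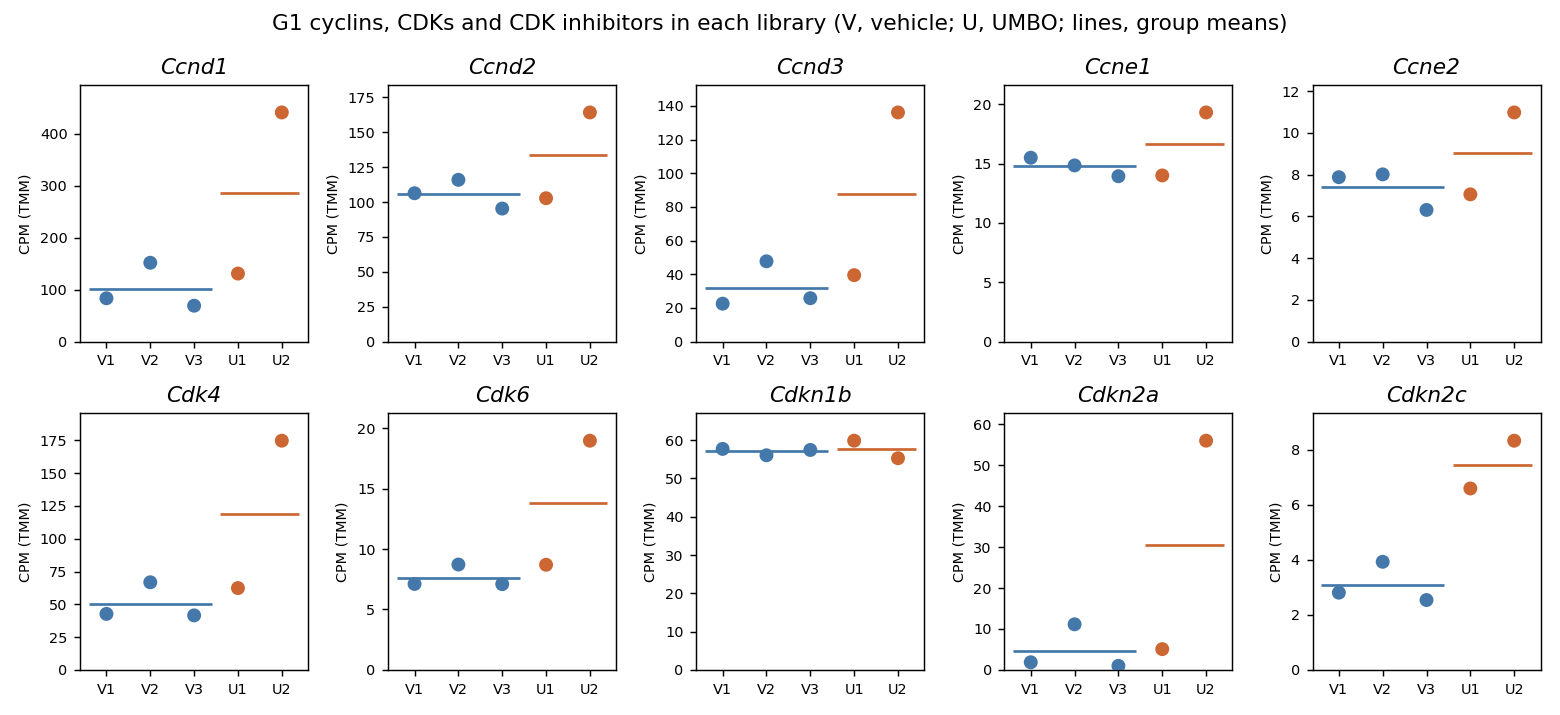
Level of each gene in CPM after TMM scaling (vertical axis, from 0, a scale of its own for each gene) in the 3 vehicle libraries (V1 to V3, blue) and the 2 UMBO libraries (U1 and U2, orange), with lines at the group means. UMBO replicate 2 is the highest point for 9 of the 10 genes, and Cdkn2c is the gene whose 2 UMBO points both lie above the 3 vehicle points.

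Several features of the order of the libraries were each shared by most members, though the full order was not. UMBO replicate 2 was the highest of the 5 libraries for 9 of the 10 genes, where 40.4% of all genes were highest in that library, and the lowest for Cdkn1b, as for 39.8% of all genes. Vehicle replicate 2 was the highest vehicle library for 8 of the 10 (39.3% of all genes) and at or above UMBO replicate 1 for 8 (50.1% of all genes). UMBO replicate 1 lay inside the vehicle range for 8 of the 10 (63.4% of all genes). A full separation of the groups, with UMBO on top, was found for 1 of the 10 (11.5% of all genes), and with UMBO at the bottom for 0 (11.4% of all genes). That 1 gene was Cdkn2c.

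Among the D-type cyclins, Ccnd1 and Ccnd3 differed several-fold between libraries and Ccnd2 little. Ccnd1 (ENSMUSG00000070348, chromosome 7 of GRCm38, 144929931 to 144939925, reverse strand), the cyclin that growth factor and Wnt signals raise in many tumors, was at 83.4, 152 and 69.1 CPM in vehicle replicates 1 to 3 and at 131 and 441 CPM in UMBO replicates 1 and 2. The first UMBO library thus lay inside the vehicle range, and the second at 2.91 times the highest vehicle library. The log2 fold change was 1.50 (standard error 0.571), at an edgeR adjusted p of 0.497, and it was 0.37 without UMBO replicate 2. Ccnd3 (ENSMUSG00000034165, chromosome 17, 47505051 to 47599691), the D-type cyclin most used by lymphocytes and other blood cells, was at 22.5, 47.7 and 25.8 CPM with vehicle and at 39.5 and 136 CPM with UMBO. Its pattern followed that of Ccnd1, with a log2 fold change of 1.46 (standard error 0.565), an edgeR adjusted p of 0.497 and a value of 0.30 without UMBO replicate 2. Ccnd2 (ENSMUSG00000000184, chromosome 6, 127125162 to 127152193, reverse strand), a cyclin of neural progenitors, was at 106, 116 and 95.3 CPM with vehicle and at 103 and 164 CPM with UMBO. Here UMBO replicate 1 lay inside the vehicle range, and the log2 fold change of 0.33 (standard error 0.25) was -0.041 without UMBO replicate 2.

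Cdk4 and Cdk6 encode the kinases that the D-type cyclins activate. Cdk4 (ENSMUSG00000006728, chromosome 10, 127063534 to 127067920) was at 42.7, 66.8 and 41.5 CPM with vehicle and at 62.4 and 175 CPM with UMBO. The groups overlapped through vehicle replicate 2, which was above UMBO replicate 1. The log2 fold change was 1.24 (standard error 0.456), the edgeR adjusted p was 0.497, and the value was 0.31 without UMBO replicate 2. Cdk6 (ENSMUSG00000040274, chromosome 5, 3341485 to 3531008) was at 7.11, 8.72 and 7.10 CPM with vehicle and at 8.70 and 19.0 CPM with UMBO. Vehicle replicate 2 and UMBO replicate 1 were level, at a ratio of 0.998, and UMBO replicate 1 came out just above when DESeq2's size factors were used or when no filter was applied. The log2 fold change of Cdk6 was 0.86 (standard error 0.357) at an edgeR adjusted p of 0.497, and it was 0.19 without UMBO replicate 2.

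The Cdk4 promoter is shown because it is rich in the E-box CACGTG, the site of MYC and related factors. Within the 300 bases from 250 before to 50 after the first transcribed base (RefSeq, GRCm38.p6) it held 4 matches, of which the 3 within 150 bases of the start are in capitals below. Of 32851 promoter windows of this length 7.15% held the motif at all and 0.0244% held 4 or more. The threshold of 4 is the count of Cdk4 itself, so this share was not set in advance. A match describes the letters and not binding. Myc itself was at 7.09, 15.1 and 4.65 CPM with vehicle and at 11.2 and 54.5 CPM with UMBO, so its libraries had the same order as those of Ccnd1. Cdk4, Cdk6 and Cdkn2a shared this order, as did Cdt1, Cdkn1a and Cks1b among the pathway genes described below. The share of all genes with this order was not computed. A part of MYC in the level of any of these genes was not tested.
Cdk4, chr10:127063385-127063534, forward strand: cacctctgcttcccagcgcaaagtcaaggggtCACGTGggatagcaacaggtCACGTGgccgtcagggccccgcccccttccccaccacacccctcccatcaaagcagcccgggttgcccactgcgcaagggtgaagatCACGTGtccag

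The cyclins E, which E2F factors control, had fitted differences no larger than about their standard errors. Ccne1 (ENSMUSG00000002068, chromosome 7, 38097984 to 38107534, reverse strand) was at 15.5, 14.8 and 13.9 CPM with vehicle and at 14.0 and 19.3 CPM with UMBO. Ccne2 (ENSMUSG00000028212, chromosome 4, 11191351 to 11204779) was at 7.88, 8.01 and 6.31 CPM with vehicle and at 7.05 and 11.0 CPM with UMBO. In both genes UMBO replicate 1 lay within the vehicle libraries and only UMBO replicate 2 lay above them, at 1.25 and 1.37 times the highest vehicle library. The log2 fold changes were 0.17 (standard error 0.211) and 0.28 (standard error 0.28), with edgeR adjusted p of 0.658 and 0.595. Without UMBO replicate 2 both had the other sign, at -0.074 and -0.066. Between the highest and the lowest library Ccne1 spanned 1.39 times and Ccne2 1.74 times, the latter close to Ccnd2 at 1.72 times, where Ccnd1 spanned 6.38 times and Ccnd3 6.04 times.

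Cdkn1b was the most even gene of the 10. This gene (ENSMUSG00000003031, chromosome 6, 134920401 to 134925513), whose product p27 holds quiescent cells out of the cycle, was at 57.7, 56.1 and 57.5 CPM with vehicle and at 59.9 and 55.3 CPM with UMBO. The highest library was 1.08 times the lowest, a range that 0.657% of the 16442 genes with a mean of at least 1 CPM matched or undercut. This rank was looked up after the values were seen. The log2 fold change was 0.01 (standard error 0.149) at an edgeR adjusted p of 0.968. It was -0.011 with no filter on low counts and -0.074 without UMBO replicate 1. In UMBO replicate 2, the library with the most RNA of proliferation genes, Cdkn1b was the lowest of the 5. It was at 55.3 CPM there, against 56.1 CPM in the lowest vehicle library, with a counting error of 1.66%. This order, the range and its rank are those of TMM scaling. With library size only, both UMBO libraries came out above the vehicle libraries and the log2 fold change was 0.13. The rank was not computed on that scale.

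Cdkn2a lay at the other extreme. The gene (ENSMUSG00000044303, chromosome 4, 89274471 to 89294653, reverse strand) encodes p16 and, from another first exon and reading frame, p19Arf, which stabilizes p53; a count per gene cannot separate them. Its level was 1.86, 11.1 and 0.980 CPM in vehicle replicates 1 to 3 and 5.07 and 56.0 CPM in UMBO replicates 1 and 2. The highest library was 57.2 times the lowest, which 0.134% of the 16442 genes matched or exceeded, a rank also looked up after the values were seen. The vehicle libraries alone spanned 11.4 times, and UMBO replicate 1 was at 0.455 times vehicle replicate 2. The log2 fold change of 2.72 was the largest of the 10 genes but carried a standard error of 1.29 and an edgeR adjusted p of 0.497. It was 0.12 without UMBO replicate 2 and 4.48 without vehicle replicate 2.

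The promoters of Cdkn2a and Cdkn2c are shown because these genes had the largest and the best separated differences. The first Cdkn2a promoter, in front of the Arf exon, held the single E2F match found in the members (TTTCCCGC, TTTCGCGC, TTTGGCGC or TTTGCCGC on either strand, in capitals), starting 99 bases before the first transcribed base; 2.26% of all windows held one. The second, in front of the p16 exon, and both Cdkn2c promoters held none of these letters, which says nothing of E2F itself. Promoters were found for 7 of the 10 genes, with 10 windows in all. The motif GGGCGG of SP1, which can share letters with an E2F match, was in 8 of the 10 windows and in 35.7% of all windows. The letters TGANTCA of AP-1 were in 0 of the 10 and in 7.81% of all. The E-box CACGTG was in 3 of the 10 and in 7.15% of all.
Cdkn2a promoter 1, chr4:89294620-89294769, reverse strand: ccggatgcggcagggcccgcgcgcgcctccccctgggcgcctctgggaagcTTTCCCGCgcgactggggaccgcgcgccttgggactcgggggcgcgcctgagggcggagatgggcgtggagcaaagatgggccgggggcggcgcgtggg
Cdkn2a promoter 2, chr4:89282193-89282342, reverse strand: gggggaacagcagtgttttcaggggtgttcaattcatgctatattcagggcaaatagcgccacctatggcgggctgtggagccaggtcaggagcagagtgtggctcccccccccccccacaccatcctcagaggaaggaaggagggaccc
Cdkn2c promoter 1, chr4:109666757-109666906, reverse strand: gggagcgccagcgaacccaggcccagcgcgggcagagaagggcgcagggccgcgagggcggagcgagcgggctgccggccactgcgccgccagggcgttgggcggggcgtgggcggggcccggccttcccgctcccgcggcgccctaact

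Cdkn2c was the member whose groups did not overlap. This gene (ENSMUSG00000028551, chromosome 4, 109660876 to 109667189, reverse strand), for the CDK4 and CDK6 inhibitor p18, was at 2.81, 3.93 and 2.54 CPM with vehicle and at 6.60 and 8.34 CPM with UMBO. The lower UMBO library was 1.68 times the highest vehicle library, and the 2 UMBO libraries differed by 1.26 times. These levels rest on 210 to 265 counts with vehicle and on 564 and 546 with UMBO. The log2 fold change was 1.27 (standard error 0.301), the unadjusted edgeR p was 0.00554, which ranked 55 of 23592, and the edgeR adjusted p was 0.497. DESeq2 gave an adjusted p of 0.074. Leaving out any 1 library gave values from 1.09 to 1.51, and the unadjusted edgeR p was 0.018 without UMBO replicate 2. The proliferation markers had a like order of libraries, with a median log2 level, set against the vehicle mean, of 1.13 and 3.01 in the UMBO libraries and 0.96 in vehicle replicate 2, while Cdkn2c was at 1.11, 1.45 and 0.37. The part of dividing cells in the level of Cdkn2c was not tested.

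**Figure D2:**
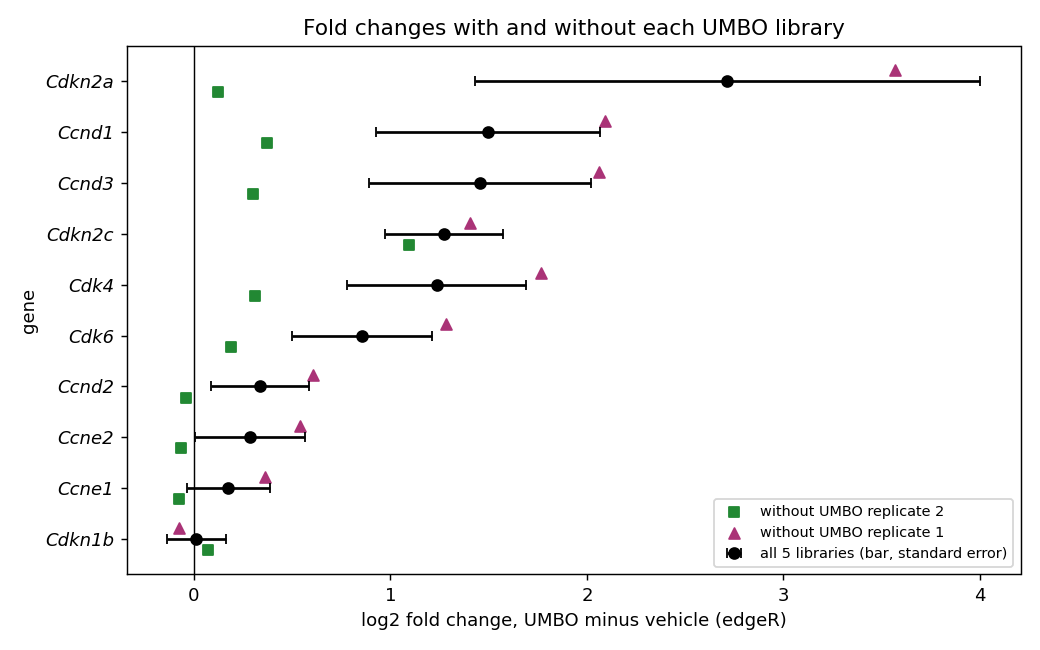
Log2 fold change of UMBO over vehicle for each gene (horizontal axis) with all 5 libraries (black, bar for the standard error), without UMBO replicate 2 (green squares) and without UMBO replicate 1 (purple triangles). Without UMBO replicate 2 the points of 9 genes lie between -0.07 and 0.37, and that of Cdkn2c at 1.09.

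On a scale that allows genes to be compared, RPKM (the CPM divided by the exonic length in kilobases), Ccnd1 was the most abundant of the 10 in the vehicle libraries, at 21.5 ± 9.37 RPKM (SD, n = 3). It was followed by Cdk4 at 15.5 ± 4.39, Cdkn1b at 12.5 ± 0.197 and Ccnd2 at 11.3 ± 1.09. Next came Ccne1 at 5.55 ± 0.295, Cdkn2a at 3.98 ± 4.80, Ccnd3 at 3.65 ± 1.56 and Ccne2 at 2.12 ± 0.271. Cdkn2c at 1.15 ± 0.275 and Cdk6 at 0.547 ± 0.0667 were the lowest. Neighbors in this order that lay within the larger of their SDs were Ccnd1 and Cdk4, Cdk4 and Cdkn1b, Ccne1 and Cdkn2a, Cdkn2a and Ccnd3, and Ccnd3 and Ccne2. The length is that of all annotated exons together, 13989 bases for Cdk6 and 8775 for Ccnd3, so a gene whose long exons are little used appears lower. In UMBO replicate 2 Cdkn2a, at 47.8 RPKM, stood behind Ccnd1 at 93.6 and Cdk4 at 53.8, and Cdkn1b, at 12.1, stood behind Ccnd2 at 17.5 and Ccnd3 at 15.5.

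Ratios within a library do not depend on how libraries are scaled to each other. None of those below was tested, and the groups overlapped in all of them. The D-type cyclins summed to 2.31, 2.36 and 2.09 times the RPKM of Cdk4 plus Cdk6 in the vehicle libraries and to 2.18 and 2.29 times in the UMBO libraries. This ratio was nearly even although Cdk4 itself spanned 4.21 times. Without length scaling it was 3.91 to 4.26 with vehicle and 3.84 and 3.82 with UMBO, so that its groups then did not overlap. Within the D-type cyclins Ccnd1 made up 56.1%, 64.5% and 52.9% with vehicle and 64.3% and 74.0% with UMBO, and Ccnd2 made up 35.8%, 24.7% and 36.5% against 25.3% and 13.8%. In both shares UMBO replicate 1 and vehicle replicate 2 were alike and UMBO replicate 2 lay beyond the rest. Ccne1 gave 69.8% to 74.4% of cyclin E RNA in all 5 libraries, and Cdk6 gave 2.46% to 3.82% of Cdk4 plus Cdk6.

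The RNA of the inhibitor genes was also set against that of the kinases, with the Cdkn2a count holding its p16 and p19Arf transcripts together. Cdkn1b was at 0.929, 0.581 and 0.949 times the RPKM of Cdk4 plus Cdk6 with vehicle and at 0.664 and 0.22 times with UMBO. Cdkn2a plus Cdkn2c was at 0.193, 0.518 and 0.134 times with vehicle and at 0.342 and 0.923 times with UMBO. UMBO replicate 2 was thus lowest for the first ratio and highest for the second, with UMBO replicate 1 inside the vehicle range in both. With means of 0.82 ± 0.207 (SD, n = 3) and 0.442 ± 0.314 (SD, n = 2) for the first and 0.282 ± 0.207 (SD, n = 3) and 0.633 ± 0.411 (SD, n = 2) for the second, the group differences were of the size of the spread between libraries. Cdkn2a was 1.52, 6.49 and 0.885 times Cdkn2c with vehicle and 1.76 and 15.4 times with UMBO.

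**Figure D3:**
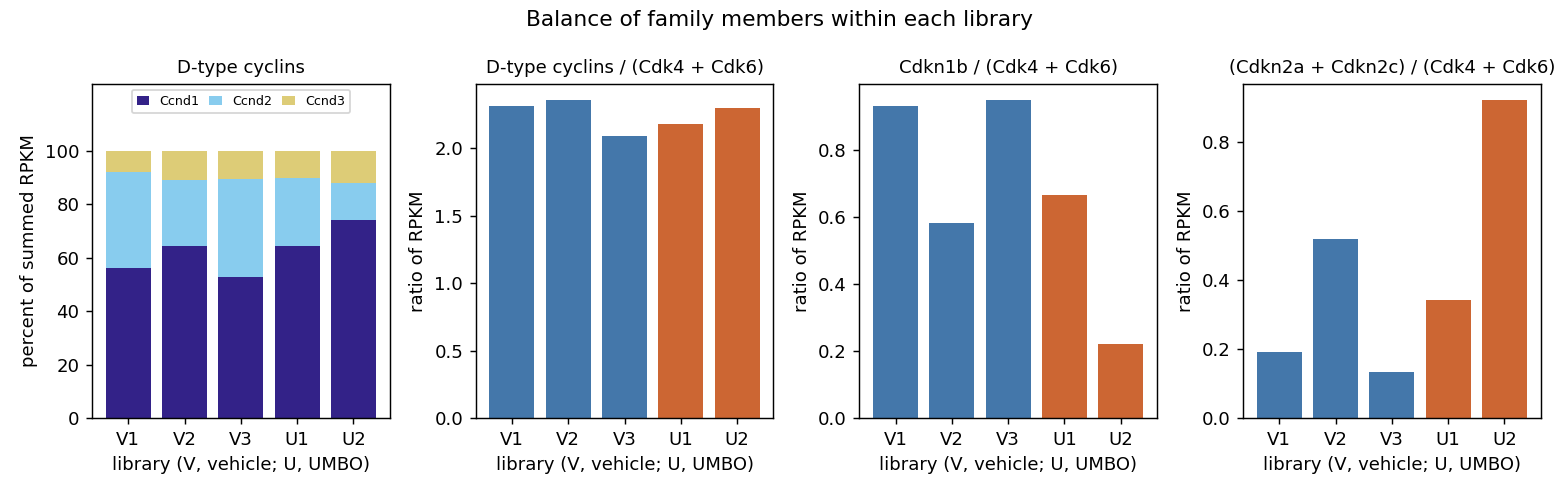
Share of each D-type cyclin in their summed RPKM (left, percent), and ratios of RPKM of the D-type cyclins, of Cdkn1b and of Cdkn2a plus Cdkn2c to Cdk4 plus Cdk6 (vertical axes from 0), in the vehicle (V1 to V3) and UMBO (U1 and U2) libraries. The ratio of D-type cyclins to kinases stays between 2.09 and 2.36, while UMBO replicate 2 has the lowest ratio for Cdkn1b, 0.22, and the highest for Cdkn2a plus Cdkn2c, 0.923.

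The G1 genes were set beside markers of dividing cells in the same libraries. Mki67, a marker of cells in cycle, was at 9.15, 14.2 and 6.37 CPM with vehicle and at 20.2 and 51.8 CPM with UMBO. Top2a, a topoisomerase of S, G2 and mitosis, was at 16.5, 38.1 and 9.91 CPM and at 38.2 and 175 CPM. Set against the vehicle mean, the median log2 level of the 10 proliferation markers was 3.01 in UMBO replicate 2, where the median of the G1 genes was 1.38. In UMBO replicate 1 these medians were 1.13 and 0.27, and in vehicle replicate 2 they were 0.96 and 0.28. Cdkn2a, at 4.34 in UMBO replicate 2, was the only one of the G1 genes above the median of the proliferation markers in that library.

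**Figure D4:**
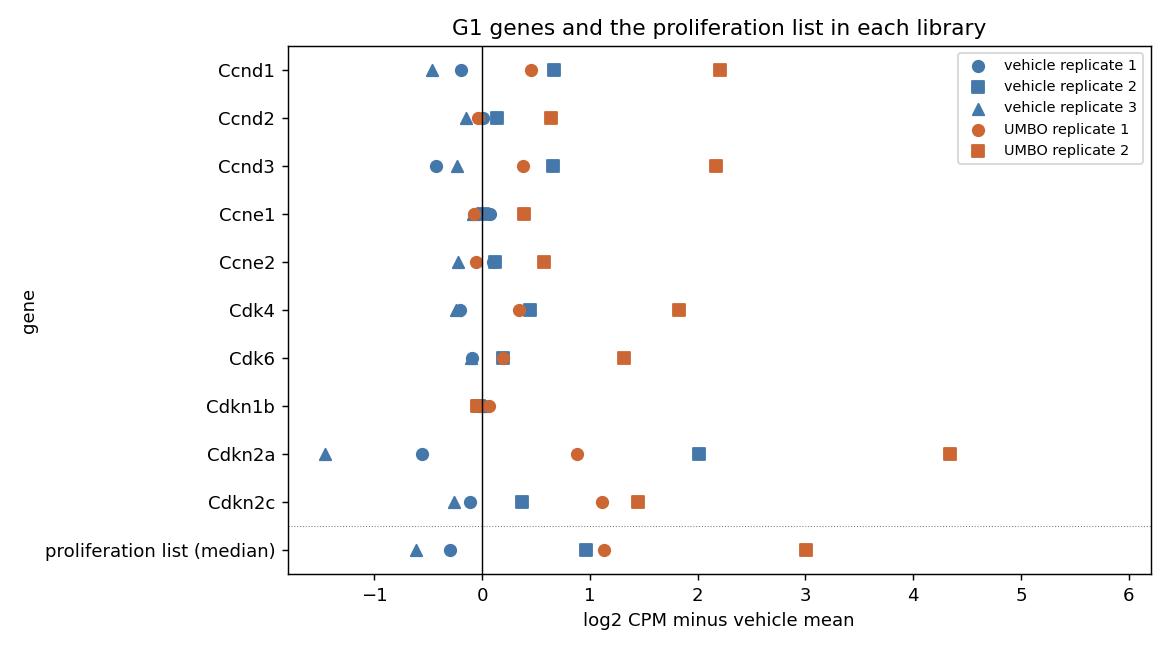
Log2 CPM minus the vehicle mean (horizontal axis) for each of the 10 genes and, in the bottom row, the median of the 10 proliferation markers, with vehicle libraries in blue and UMBO libraries in orange. UMBO replicate 2 lies to the right for all but Cdkn1b, and the spread runs from Cdkn1b, between -0.05 and 0.07, to Cdkn2a, between -1.46 and 4.34.

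Of the RB-E2F pathway around these genes, a list of 29 others was compared in the same test, and all 29 had enough counts. None passed an adjusted p of 0.05 with edgeR or DESeq2, and 11 had an unadjusted edgeR p under 0.05, all of them higher with UMBO, beside 7.37% of all genes in either direction and 5.3% as higher. The median log2 fold change was 0.34, with 22 higher and 7 lower. In 9 of the 29 both UMBO libraries were above the vehicle libraries (11.5% of all genes) and in 3 both were below (11.4% of all genes). Without UMBO replicate 2, vehicle replicate 1 or vehicle replicate 3, 1 gene, E2f8 each time, had an unadjusted p under 0.05 (1.86%, 1.28% and 1.88% of all genes), and without UMBO replicate 1 there were 20 (41% of all genes). The median was 0.11 without UMBO replicate 2.

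The smallest p of the 29 was that of E2f8. This gene, for an atypical E2F that represses E2F targets, was at 1.39, 2.02 and 0.791 CPM with vehicle and at 4.19 and 5.60 CPM with UMBO, so its groups did not overlap. Its log2 fold change was 1.81 (standard error 0.442) and 1.59 without UMBO replicate 2. Ccna2, the cyclin of S phase, was at 6.11, 12.4 and 5.21 CPM with vehicle and at 12.8 and 49.3 CPM with UMBO. Cdk2, the partner of the cyclins E and A, was at 3.89, 7.48 and 4.48 CPM and at 8.29 and 19.8 CPM. For Ccna2 and Cdk2 UMBO replicate 1 was only just above vehicle replicate 2, at 1.04 and 1.11 times, and their log2 fold changes of 1.98 and 1.41 were 0.70 and 0.65 without UMBO replicate 2. E2f2, E2f7 and Rbl1, the last of which encodes the RB relative p107, likewise had both UMBO libraries above the vehicle libraries, with log2 fold changes of 1.44, 1.46 and 0.99. Without UMBO replicate 2 these were 0.73, 0.60 and 0.40, and UMBO replicate 1 was at 1.21, 1.15 and 1.05 times vehicle replicate 2.

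In 5 other pathway genes with an unadjusted p under 0.05 the groups overlapped through vehicle replicate 2, as in Ccnd1. These were Cdt1, which loads the replicative helicase, Cks1b, a cofactor of SKP2, Myc, and the inhibitors Cdkn1a and Cdkn2b. Cdkn1a, the p53 target for p21, was at 12.6, 21.2 and 9.93 CPM with vehicle and at 16.5 and 77.4 CPM with UMBO. Cdkn2b, the neighbor of Cdkn2a for p15, was at 0.495, 1.90 and 0.602 CPM with vehicle and at 1.68 and 6.23 CPM with UMBO, with a log2 fold change of 1.99 (standard error 0.785). It was 0.76 without UMBO replicate 2 and 2.88 without vehicle replicate 2, and that of Cdkn1a was 1.69 with all libraries and 0.18 without UMBO replicate 2. Like Cdkn2a, both inhibitors were highest in UMBO replicate 2, as were 21 of the 29 pathway genes and 40.4% of all genes. Fbxw7 was the next gene by p, and its unadjusted edgeR p was 0.0921 (adjusted p 0.497). Fbxw7, the ubiquitin ligase subunit that marks cyclin E and MYC for degradation, was at 262, 200 and 172 CPM with vehicle and at 168 and 120 CPM with UMBO, so UMBO replicate 1 was close to vehicle replicate 3. Its log2 fold change was -0.55 (standard error 0.276) and -0.33 without UMBO replicate 2. Fbxw7 is also expressed in neurons, whose markers were lowest in UMBO replicate 2, and their part in its level was not tested.

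**Figure D5:**
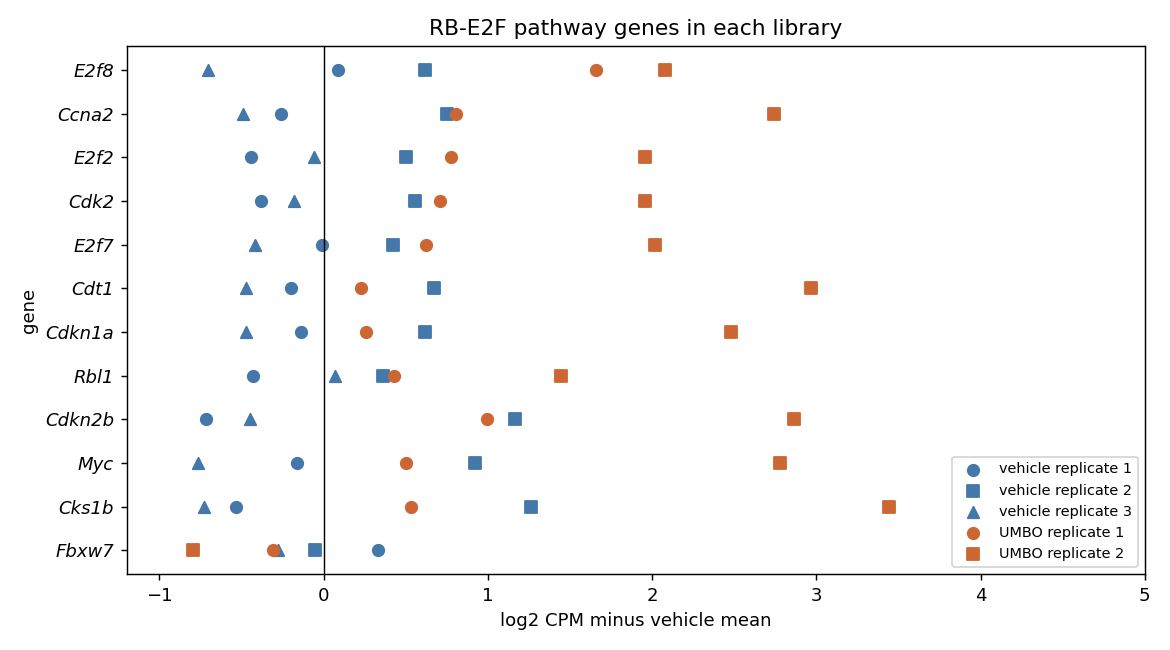
Log2 CPM minus the vehicle mean (horizontal axis) of the 12 pathway genes with the smallest p, in vehicle (blue) and UMBO (orange) libraries. Both orange points lie to the right of the blue points for E2f8, Ccna2, E2f2, Cdk2, E2f7 and Rbl1, and both lie to the left for Fbxw7.

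Genes with the most similar pattern were sought by the root mean square difference of log2 CPM, each gene centred on its own mean over the 5 libraries, among 14389 protein-coding genes. Closest to Ccnd1 were Spdl1 at 0.0596, Fanci at 0.0628 and Tspan4 at 0.0791, and the closest G1 gene was Ccnd3 at 0.15. Closest to Cdk6 were Pabpc4 at 0.0168, Taf15 and Eef1d, and closest to Ccne1 were Rbm12 at 0.0148, Pwp2 and Gtf2h1. Closest to Cdkn1b were Slc38a7 at 0.00901, Pip4p2 and Sypl. Cdkn2c had as its nearest Ltc4s at 0.0677, Id3 at 0.115 and Fam83d at 0.128. The 5 libraries are shared by all these genes, so likeness here is a description of 5 points only.

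Exons of 6 of the 10 genes overlap exons of a gene on the opposite strand: those of Ccnd1, Ccnd2, Ccnd3, Ccne2, Cdk4 and Cdk6. Whether reads were counted by strand is not given in the sources used here, so reads in these stretches cannot be assigned with certainty. Ccne1, Cdkn1b, Cdkn2a and Cdkn2c have no such overlap.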

How the data were processed

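Right hemispheres of 3 vehicle-treated and 2 UMBO-treated mice were analysed as 5 libraries, grouped by their labels. The authors aligned reads to GRCm38 (STAR 2.7.2a) and deposited whole-number counts for each gene, with no normalization; the annotation release is not given in the sources used here. Symbols, positions and exonic lengths were taken from GENCODE M21 on the same build, which named 55480 of 55573 genes. Counts were scaled by TMM, filtered with filterByExpr and compared in edgeR 4.0.16 under R 4.3.3 by its quasi-likelihood test, p-values being adjusted by Benjamini-Hochberg over 23592 genes and a threshold of 0.05. Log2 CPM used a prior count of 2. The standard error is the fitted log2 fold change over the square root of its F statistic. P-values measure the spread between 5 mice, and 3 against 2 is a small design. On simulated counts with 200 of 23592 genes changed 4-fold, edgeR called 119 of the 200 and 12 unchanged genes at the dispersions of these libraries. The changed genes were drawn from those above a minimum mean count, and each gene was simulated on its own. No simulated library carried a shift shared by many genes, so the 119 need not hold for these libraries.

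The genes, gene lists and rules were chosen with earlier results of these data known. The text names the 10 G1 genes, the 12 pathway genes with the smallest p, Mki67, Top2a, and for 5 members the 3 genes most alike over the libraries. Marker lists are described by their sums, medians and counts of markers. Promoter sequences came from RefSeq (GRCm38.p6). Alternatives covered scaling, filtering, DESeq2 1.42.0, the replicate number as a block, and each library left out.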

Additional observations from a re-analysis of the deposited data

How the results depend on the processing

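The median over the 10 genes moved by less than 0.787 from its value of 1.05 under every alternative but 1, without UMBO replicate 2. That limit is the SD of the members' median levels in the 2 UMBO libraries, 0.27 and 1.38. It comes from the gap between these libraries, so only a large shift could exceed it. Left-out libraries gave 0.16 (without UMBO replicate 2) to 1.34 (without UMBO replicate 1). With 1 library left out, log2 fold changes ranged from -0.041 to 0.61 for Ccnd2, from -0.074 to 0.36 for Ccne1 and from -0.066 to 0.54 for Ccne2, lowest without UMBO replicate 2 and highest without UMBO replicate 1. For Cdkn1b they ranged from -0.074 without UMBO replicate 1 to 0.071 without UMBO replicate 2, and the value was -0.011 with no filter. Library size only moved the median of all genes from 0.01 to 0.13.

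With 1 library left out, adjusted calls ranged from 0 to 4543 of all genes, 0 to 5 of the G1 genes and 0 to 14 of the pathway genes. The highest values came without UMBO replicate 1, where 1 UMBO library was assumed to vary like the vehicle libraries. Unadjusted calls ranged from 296 to 10165, 1 to 7 and 1 to 20, against 1738, 4 and 11 with all libraries. Among the G1 genes the unadjusted call was left to 1 gene without UMBO replicate 2, vehicle replicate 1 or vehicle replicate 3. The G1 genes with no overlap numbered 1 to 9 above and 0 to 1 below. The 9 and the 1 came without UMBO replicate 1, where 42.5% and 41.3% of all genes did so, and 6 lay above without vehicle replicate 2, as did 30.8% of all genes. They were 2 above with size factors from DESeq2, with no filter (Cdk6 the second gene in both) and with library size only (Cdkn1b the second), against 11.3%, 10.3% and 13.8% of all genes. DESeq2 called 37 genes (2639 unadjusted), and no filter gave 4100 unadjusted; the cause was not tested.

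Counts in place of RPKM changed the UMBO minus vehicle difference from 1.46 to 3.31 percentage points for the Ccnd3 share, from -0.70 to -2.46 for the Cdk6 share and from -0.02 to -0.28 for the ratio of D-type cyclins to kinases. By counts this ratio was lower in both UMBO libraries, at 3.84 and 3.82, than in the vehicle libraries, at 3.91 to 4.26.

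With the replicate block, 2337 genes (9.91%) passed the adjusted threshold and 6134 the unadjusted one, among them 5 G1 genes and 10 pathway genes by adjusted p. The labels do not say what the replicate numbers mark. Deviations from the group means correlated at 0.453 for number 1 and 0.76 for number 2. The deviations of the 2 UMBO libraries are equal and opposite, so these correlations are not separate checks. With 2 numbers in common they do not establish pairs.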
